A study of Homo sapiens with 16 samples.

Results

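The regions described here were places in the human genome with a chromatin immunoprecipitation peak that lay in no protein-coding gene, over 1 kb from every annotated gene start, and outside 8 large tRNA gene clusters on chromosomes 1, 5, 6, 7, 14, 16 and 17. They were found by merging 3 deposited peak lists into 6212 regions on annotated chromosomes and applying that rule with the GENCODE release 44 annotation of GRCh37 (hg19). The rule left 333 regions, or 5.36% of the total, on 23 chromosomes. A peak of the wild-type (WT) list lay in 88 of them, one of the POLK-/- list in 140 and one of the DDX23-/- list in 271.

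The cells were HEK293T, an established human embryonic kidney line, and all groups were untreated. WT cells carried both genes, POLK-/- cells lacked POLK, the gene of the translesion DNA polymerase kappa, and DDX23-/- cells lacked DDX23, the gene of a DEAD-box RNA helicase of the spliceosome. Each genotype had 1 peak list, credited by its record to the first library of that genotype, so no value below has a replicate and the genotypes were compared without a test. The labels name Polk as the target while the protocol names an anti-FLAG gel, and the labels of these cells give no tag, so the sources used here do not settle which protein the antibody bound. POLK-/- cells lacked the gene of the polymerase, so the 2451 peaks of their list cannot be read as its binding sites. Whether the knockout lines were single clones is not given in the sources used here.

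A tRNA gene is read by RNA polymerase III from a promoter inside the gene. The A box and the B box of that promoter bind the factor TFIIIC and become the D loop and the T loop of the tRNA, whose stems pair into a cloverleaf with the anticodon on its middle arm. Many human tRNA genes stand in large clusters, but others are scattered singly or in small groups between protein-coding genes, and those outside the excluded clusters could fall among the 333 regions. Other small RNAs made by RNA polymerase III, such as snaR and Y RNAs, also lie outside protein-coding genes.

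Sequences from regions with small p-values or large ratios between lists are given first, read from GRCh37, because they share a form that the choice of regions did not use. Each is printed 5′ to 3′ on the strand of its anticodon and runs from the first to the last paired base of the acceptor stem. Capitals mark the anticodon and the 9 bases at the place of the B box. The first set is from regions that were strong in all 3 lists.
Lys-TTT, chr1:204475655-204475726, plus strand: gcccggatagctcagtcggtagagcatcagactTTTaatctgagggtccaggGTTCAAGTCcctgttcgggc
Pro-AGG, chr11:75946557-75946627, plus strand: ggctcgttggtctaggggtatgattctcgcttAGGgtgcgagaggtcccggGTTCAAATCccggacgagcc
Pro-TGG, chr11:75946870-75946940, minus strand: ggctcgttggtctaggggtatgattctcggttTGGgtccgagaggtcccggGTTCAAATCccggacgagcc
Asp-GTC, chr12:125424194-125424264, minus strand: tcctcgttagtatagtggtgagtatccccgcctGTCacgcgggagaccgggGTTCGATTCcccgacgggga
Ala-TGC, chr12:125424512-125424582, plus strand: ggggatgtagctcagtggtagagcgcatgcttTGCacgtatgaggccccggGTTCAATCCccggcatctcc
Leu-TAG, chr16:22207033-22207113, minus strand: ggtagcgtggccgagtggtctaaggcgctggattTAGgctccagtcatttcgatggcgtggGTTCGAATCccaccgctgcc
Cys-GCA, chr17:37023898-37023968, plus strand: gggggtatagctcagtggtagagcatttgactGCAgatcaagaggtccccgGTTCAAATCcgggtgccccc
Ala-CGC, chr2:157257281-157257351, plus strand: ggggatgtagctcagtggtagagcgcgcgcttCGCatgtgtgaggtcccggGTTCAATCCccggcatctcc
Gly-GCC, chr2:157257660-157257729, minus strand: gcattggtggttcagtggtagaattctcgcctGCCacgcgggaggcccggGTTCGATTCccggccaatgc
The next pair carries an intron after the anticodon, of 13 bases in the first and 19 in the second.
Arg-TCT, chr11:59318767-59318851, plus strand: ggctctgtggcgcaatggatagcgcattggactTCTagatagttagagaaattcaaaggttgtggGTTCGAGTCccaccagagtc
Ile-TAT, chr2:43037676-43037767, plus strand: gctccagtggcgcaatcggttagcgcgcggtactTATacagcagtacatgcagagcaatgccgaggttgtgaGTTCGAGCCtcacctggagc
The last set is from chromosome 6 near the centromere, where the letters at the B box place differ from those of the other sets and where the DDX23-/- values were high beside WT.
Ala-AGC, chr6:58142590-58142661, minus strand: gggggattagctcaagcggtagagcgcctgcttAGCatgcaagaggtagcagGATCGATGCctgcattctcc
Ala-AGC, chr6:58196624-58196695, minus strand: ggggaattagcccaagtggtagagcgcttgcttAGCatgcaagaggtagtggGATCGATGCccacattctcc

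A sequence that can fold in this way, here called a cloverleaf, was found in 43 of the 333 intergenic regions (12.9%, exact 95% interval 9.51% to 16.997%), against 266 of all 6212 regions (4.28%). The search was chosen after the data had been seen. It asked for at least 16 of 17 base pairs in the acceptor, anticodon and T stems, with the T loop, the GG of the D loop and a T before the anticodon at their places. In the excluded tRNA clusters 60.7% of regions held one, near gene starts 0.859%, and in protein-coding genes away from starts 1.54%. These intervals, and all others given for shares, cover counting error only.

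The 43 regions held 53 cloverleafs, 1 each in 35 regions and 2 or more in 8. They had 28 different anticodons, which pair with codons of 16 amino acids. TTT of lysine tRNA was the most frequent, with 5 cloverleafs in 4 regions, followed by AGC of alanine and GCA of cysteine with 4 each. An intron was present in 2, and 5 had the long variable arm that leucine tRNAs carry. Of the 53, 27 had an identical sequence elsewhere in the genome, such as the Lys-TTT sequence above, which occurred 5 times, so reads inside them cannot be placed by that sequence alone. RefSeq (table on GRCh38.p14, matched by neighbouring genes and anticodon because its coordinates are of another build) listed a tRNA gene with the same anticodon between the same protein-coding neighbours for 46 of the 53, and exactly 1 such gene for 27. The peak summit lay in a cloverleaf or within 100 bp of one in 42 of the 43 regions.

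The intergenic peaks with the smallest p were mostly at these tRNA-like sequences. Of the 10 intergenic regions with the smallest p, all 10 held a cloverleaf in WT and in DDX23-/- and 9 did in POLK-/-. The height of a peak is given as the number of fragments that overlap at its summit, and enrichment as that number over the local background, both solved from the deposited fold and p-value. Among the 56 regions with a peak in all 3 lists, the 37 with a cloverleaf had between 11 and 297 fragments in WT with a median of 51, between 25 and 402 in POLK-/- with a median of 173, and between 48 and 389 in DDX23-/- with a median of 238. The 19 without one had medians of 15, 36 and 69 fragments. Median enrichment of the 37 was 38.8 in WT, 55.9 in POLK-/- and 61.1 in DDX23-/-, and 13 of them were among the 100 peaks with the smallest p in each list.

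**Figure D1:**
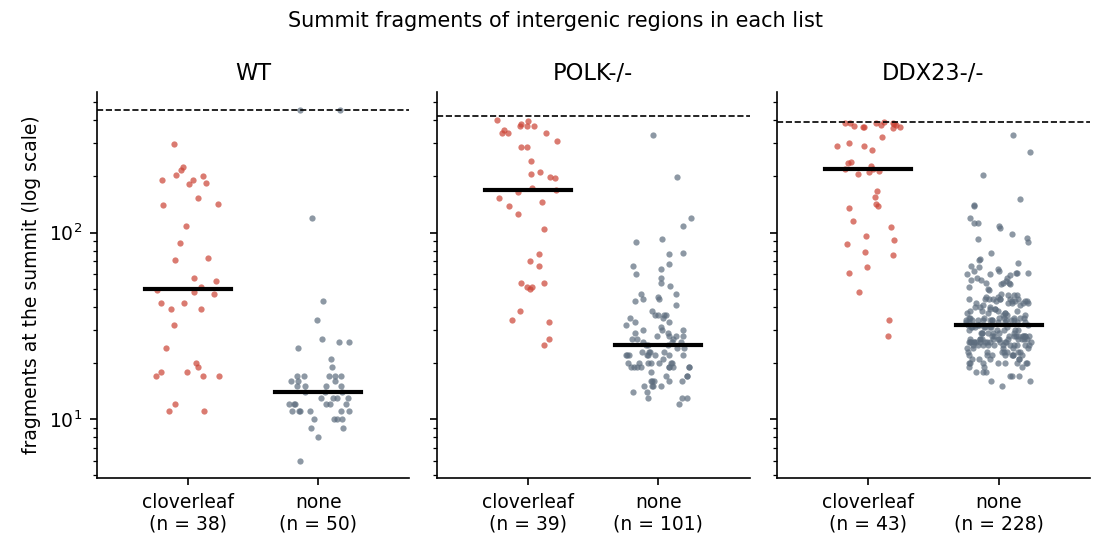
Fragments at the summit (log scale) of each intergenic region with a peak in the list, split by the presence of a cloverleaf; bars are medians and the dashed line is the largest number reachable if 1 fragment is kept per position and strand. The median is 50 against 14 in WT, 169 against 25 in POLK-/- and 219 against 32 in DDX23-/-, and the 2 WT points at the dashed line without a cloverleaf lie in centromeric repeats.

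In WT the intergenic region with the smallest p was chr11:75946186-75947172, between WNT11 and THAP12, with the Pro-AGG and Pro-TGG cloverleafs printed above on opposite strands. It had 225 fragments in WT, 373 in POLK-/- and 382 in DDX23-/-. Its enrichment was 74.2, 86.8 and 107 in the same order. On chromosome 12 the region chr12:125423728-125425141, which holds Asp-GTC and Ala-TGC, had 297, 402 and 389 fragments. Another region of chromosome 12, chr12:125405948-125406755 with a second Ala-TGC, had 200, 343 and 367 fragments but the highest intergenic enrichment of the WT list, 103, against 63.1 in POLK-/- and 60.5 in DDX23-/-.

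The Lys-TTT region chr1:204475251-204476595, between PIK3C2B and MDM4, an inhibitor of p53, had 192 fragments in WT, 371 in POLK-/- and 384 in DDX23-/-. It held 2 copies of the same 72-base sequence on opposite strands and led the intergenic regions of the DDX23-/- list by p. The Leu-TAG region chr16:22206610-22207458, near EEF2K, the kinase of elongation factor 2, had 204, 381 and 376 fragments and led those of the POLK-/- list. On chromosome 11 a group of 3 regions spanning 10698 bp between OR4D9 and OSBP carried 6 cloverleafs, 2 for Val-TAC, 2 for Lys-TTT, 1 for Arg-TCT and 1 for Leu-TAA. The widest of them, chr11:59317553-59319596, had 141, 343 and 363 fragments. Its neighbours chr11:59323484-59324471 and chr11:59327388-59328250, with 1 Lys-TTT each, had 216, 394 and 387 fragments and 183, 356 and 387 fragments.

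On chromosome 17 a pair of Cys-GCA regions lay between RPL23, a ribosomal protein gene, and LASP1. The region chr17:37023423-37024352 had 184 fragments in WT, 340 in POLK-/- and 377 in DDX23-/-, and chr17:37017512-37018710 had 109, 288 and 368. The Pro-CGG and Pro-AGG region chr1:167683628-167685087, near MPZL1, had 192, 370 and 384 fragments and ratios of 1.00 (0.841 to 1.20) for POLK-/- and 1.30 (1.09 to 1.55) for DDX23-/-.

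In the knockout lists, summits this high approach what the libraries could show, a limit worked out after the data were seen. If only 1 fragment is kept per position and strand, a summit cannot pass 456 fragments in WT, 422 in POLK-/- and 392 in DDX23-/-. The highest summits over all regions were 456, 402 and 390. At 80% or more of that limit were 10 of the intergenic regions with a WT peak and a POLK-/- peak, in the POLK-/- list, and 15 of those with a WT and a DDX23-/- peak, in the DDX23-/- list, and the part of this limit in the ratios given below was not tested.

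The 3 lists differed in depth, and the number of peaks followed it. The total fragments per library are not in the lists, but background per base put POLK-/- at 2.36 times and DDX23-/- at 3.94 times the WT depth. The lowest summits called were 6 fragments in WT, 10 in POLK-/- and 14 in DDX23-/-. Presence or absence of a peak therefore cannot be told apart from depth. Counts below are set beside the same count over all merged regions where that was computed.

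**Figure D2:**
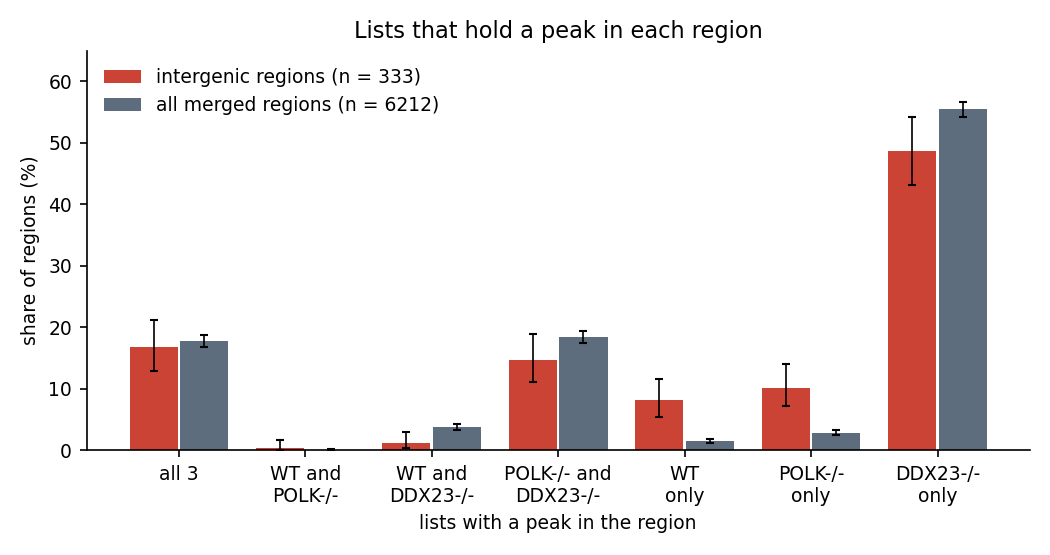
Share of the 333 intergenic regions and of all 6212 merged regions with a peak in each combination of the 3 lists; error bars are exact 95% binomial intervals. WT-only and POLK-/- only regions take a larger share of the intergenic regions (8.11% and 10.2%) than of all regions (1.53% and 2.9%).

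Of the 333 intergenic regions, 56 had a peak in all 3 lists (16.8%, 12.96% to 21.3%), against 17.8% of all regions. A DDX23-/- peak alone was present in 162 (48.6%, 43.2% to 54.2%), against 55.5% of all regions. With each list cut to the same number of peaks, as many as WT had, these intergenic shares were 32.4% and 13.8% of the 145 regions left. The shares over all regions were not computed under this cut, so the shift cannot be read as particular to intergenic regions. In the full lists there were 27 WT-only regions (8.11%, 5.41% to 11.6%), against 1.53%, and 34 POLK-/- only regions (10.2%, 7.18% to 13.97%), against 2.9%. Another 49 regions (14.7%, 11.1% to 18.98%) had a peak in both knockouts and none in WT, against 18.4% of all regions. There were 4 in WT and DDX23-/- (1.20%, against 3.75%) and 1 in WT and POLK-/- (0.300%, against 0.0966%). A DDX23-/- peak of any kind was present in 81.4% of the intergenic regions and in 95.5% of all regions.

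The cloverleaf was found mostly in the regions shared by all lists. It was present in 37 of the 56 regions shared by all lists (66.1%, 52.2% to 78.2%), against 4.28% of all regions. It was in 3 of the 162 DDX23-/- only regions (1.85%, 0.384% to 5.32%). None of the 27 WT-only and none of the 34 POLK-/- only regions held one, with exact intervals up to 12.8% and 10.3%. The intervals of these single-list classes include the 4.28% of all regions. All 43 cloverleaf regions had a DDX23-/- peak, as did 95.5% of all regions. The 6 that lacked a peak in WT, in POLK-/- or in both were the Ala-AGC region chr6:58142365-58142929, seen in WT and DDX23-/-, the Gln-CTG region chr6:18836205-18836670 and the Leu-TAA region chr6:144537489-144537936, seen in both knockouts, and 3 DDX23-/- only regions, with Ile-AAT at chr6:58149123-58149453, Ala-AGC at chr6:58187426-58187647 and His-GTG at chr9:14433772-14434095.

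A calculation chosen after the data were seen asked what height a peak in 1 list would have in another list at the same enrichment over that list's genome-wide background. For the 162 DDX23-/- only regions the median was 5.15 fragments in WT, and 108 of them came below 6, the lowest WT summit. In POLK-/- 64 of the 162 came below 10, the lowest summit there, and 98 did not. For the 34 POLK-/- only regions 14 came below 6 fragments in WT and 5 below 14 in DDX23-/-. For the 27 WT-only regions only 2 came below the lowest summit in POLK-/-, and 2 in DDX23-/-. These regions were picked by the list that called them, and the lowest summit is that of the whole list, not of their own background, so the counts describe heights only. The calculation was not made for regions of other kinds, so the counts show nothing particular to intergenic regions.

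At the 57 intergenic regions with both a WT and a POLK-/- peak, the median ratio of POLK-/- to WT enrichment was 1.11 (95% interval of the median 1.00 to 1.35, quartiles 0.810 and 1.57), beside 0.940 over the 1113 regions of any kind with both peaks. The ratio was over 2-fold higher in 8 of the 57, where 13.1% of all regions were, and over 2-fold lower in 1, where 15.5% of all regions were. At the 60 regions with a WT and a DDX23-/- peak the median ratio of DDX23-/- to WT was 1.43 (1.27 to 1.77, quartiles 0.799 and 2.10), beside 1.24 over 1340 regions. It was over 2-fold higher in 17 of the 60, where 23.4% of all regions were, and over 2-fold lower in 3, where 4.78% of all regions were. These shares were near the background, apart from the count over 2-fold lower in POLK-/-.

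The cloverleaf regions lay above the others in both ratios. With a cloverleaf the median POLK-/- to WT ratio was 1.34 over 37 regions, of which 29 were above 1. Without it the median was 0.864 over 20 regions, of which 8 were above 1. Over regions of any kind, 520 of 1113 were above 1. The DDX23-/- to WT medians were 1.69 over 38 regions and 0.811 over 22. The group without a cloverleaf includes chr17:80452086-80453073, in which a wider search described below found one. Its ratios were 0.940 for POLK-/- and 0.385 for DDX23-/-. Regions in the large tRNA clusters had medians of 1.40 and 1.60, and regions near gene starts 0.845 and 1.16. The medians of the scattered tRNA-like regions were thus close to those of the clusters, and the median of the other intergenic regions was close to that near gene starts for POLK-/- and below it for DDX23-/-. Near the fragment limit the POLK-/- median was 1.68 over 10 regions and under it 1.05 over 47, and the DDX23-/- medians were 1.64 over 15 and 1.33 over 45. Under the limit the intervals of the median, 0.907 to 1.27 for POLK-/- and 0.833 to 1.92 for DDX23-/-, included 1. A ratio also needs a WT peak, which weak regions get more readily where their WT count is high. Among regions in all 3 lists the median WT summit was 15 fragments without a cloverleaf and 51 with one, while the lowest WT summit called was 6. The part of this selection in the contrast by cloverleaf was not tested.

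**Figure D3:**
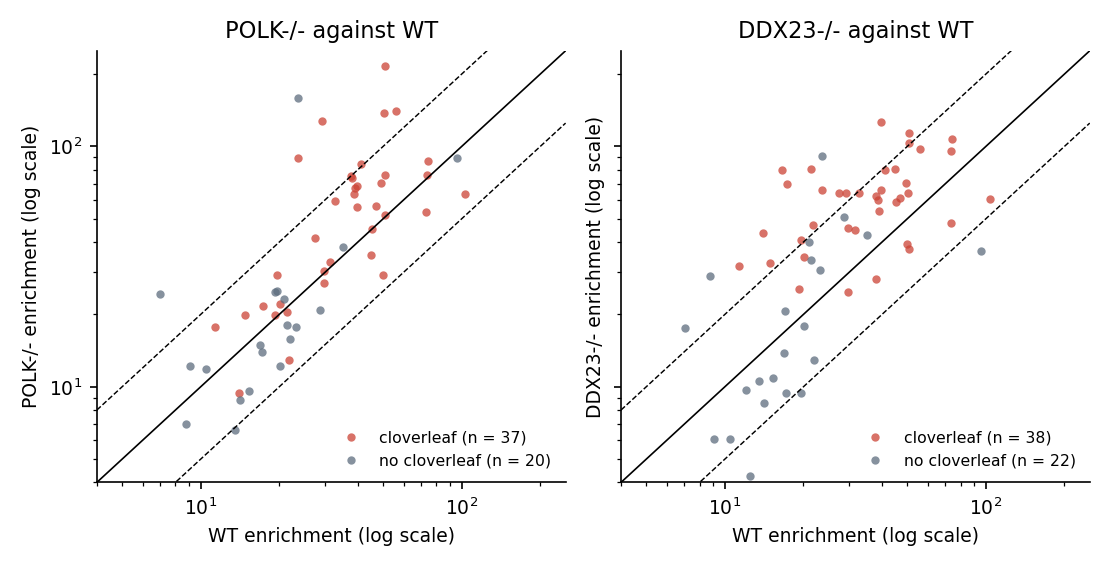
Enrichment over local background in each knockout against WT (log scales) at intergenic regions with a peak in both lists, with equality as a solid line and 2-fold either way as dashed lines. Of the cloverleaf regions, 29 of 37 lie above equality for POLK-/- and 32 of 38 for DDX23-/-.

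The single largest POLK-/- to WT ratio belonged to a region with no cloverleaf, chr19:50636783-50637690, between ZNF473 and IZUMO2. It had 43 fragments in WT, 198 in POLK-/- and 270 in DDX23-/-. The enrichments were 23.6, 158 and 90.9, giving ratios to WT of 6.70 (4.80 to 9.55) for POLK-/- and 3.84 (2.78 to 5.43) for DDX23-/-, with intervals from fragment counting alone. RefSeq (GRCh38.p14) lists 12 snaR genes between the same neighbours. snaR are small noncoding RNAs transcribed by RNA polymerase III. In the body of the same lncRNA gene, ENSG00000287001, lay 4 further intergenic regions, none with a WT peak. Its nearest neighbours chr19:50640244-50640589 and chr19:50642184-50642662 had 20 and 60 fragments in POLK-/- and 26 and 66 in DDX23-/-. Another 3 intergenic regions lay between SULT2A1 and BSPH1, where RefSeq lists 10 more snaR genes, and none of those had a WT peak.

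The snaR locus repeats itself, so fragments there cannot be assigned to 1 copy with certainty. The longest stretch shared without a difference by the strongest region and chr19:50642184-50642662 was 297 bases, at chr19:50636891-50637187, and is printed on the minus strand to show the copy, with the B box match in capitals.
Stretch shared by both snaR-locus regions, chr19:50636891-50637187, minus strand: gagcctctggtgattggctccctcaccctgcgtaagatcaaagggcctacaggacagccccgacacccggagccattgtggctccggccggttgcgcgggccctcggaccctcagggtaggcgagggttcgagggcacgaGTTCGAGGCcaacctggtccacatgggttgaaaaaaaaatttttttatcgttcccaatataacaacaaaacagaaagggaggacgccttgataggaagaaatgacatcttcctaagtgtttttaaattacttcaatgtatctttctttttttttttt

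After that region, the largest POLK-/- ratios were mostly at tRNA-like sequences. The Ile-TAT region chr2:43037449-43038125 had 88, 173 and 291 fragments in WT, POLK-/- and DDX23-/- and a POLK-/- ratio of 4.39 (3.37 to 5.74). The region chr2:157256911-157257871 with Ala-CGC and Gly-GCC had 154, 311 and 368 fragments and a ratio of 4.27 (3.51 to 5.22). Local background in WT was 3.03 fragments at both the Ile-TAT region and this one. In POLK-/- it was 1.36 and 1.43. Genome-wide levels were 0.573 in WT and 1.25 in POLK-/-, so these ratios depend on the background used. The intervals cover summit counts only and leave out error in the background. The Lys-TTT region chr11:122430345-122430977, 2916 bp from the start of the microRNA host gene MIR100HG, had 57, 243 and 300 fragments and a ratio of 3.81 (2.84 to 5.17). A region 1829 bp from a Y RNA gene start, chr1:153755878-153756468, held no cloverleaf. It had 17, 66 and 106 fragments and a ratio of 3.47 (2.01 to 6.30). The DDX23-/- ratios of all 5 were between 2.03 and 3.84. Both ratios divide by the same WT enrichment, so a low WT value raises both. Over regions of any kind, 854 of 1340 had a DDX23-/- ratio above 1.

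The smallest POLK-/- ratios were 0.488 to 0.611. They belonged to chr17:41393106-41393405, with 15, 27 and 28 fragments, to the Gly-GCC region chr21:18826772-18827463, with 55, 198 and 238, to the Val-TAC region chr10:5895363-5895941, with 24, 70 and 143, to chr8:144489973-144490356, with 15, 28 and 69, and to the region chr12:125405948-125406755 given above. Of these only the first passed 2-fold, at 0.488 (0.251 to 0.988). Local background at the Gly-GCC region was 1.11 fragments in WT and 6.79 in POLK-/-, against genome-wide levels of 0.573 and 1.25. These ratios too depend on the background used.

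The largest DDX23-/- ratios were in the pericentromeric part of chromosome 6, between PRIM2, the large subunit of primase, and KHDRBS2. The Ala-AGC region chr6:58142365-58142929 had 20 fragments in WT, no peak in POLK-/- and 155 fragments in DDX23-/-, a ratio of 4.84 (3.03 to 8.14). The Ala-AGC region chr6:58196285-58197004 had 12, 27 and 136 fragments, a DDX23-/- ratio of 4.03 (2.23 to 7.99) beside a POLK-/- ratio of 1.24 (0.610 to 2.70). The DDX23-/- only region chr6:58141722-58142217, 98 fragments high, lay beside the first and held no cloverleaf. Intergenic regions within 10 kb of each other formed a group of 4 and a group of 2 there, and among these 6 regions only the 2 Ala-AGC ones above had a WT peak.

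Further large DDX23-/- ratios were 3.74 (2.63 to 5.45) at the Glu-TTC region chr13:45491776-45492385, with 39, 139 and 167 fragments, and 3.27 (1.91 to 5.97) at chr19:36422076-36422563 near LRFN3, with 16, 38 and 89 fragments. The smallest was 0.341 (0.157 to 0.798) at chr17:41446257-41446766, where 10 fragments in WT stood against 24 in DDX23-/- and no POLK-/- peak was called. The next was 0.385 (0.311 to 0.479) at chr17:80452086-80453073, the strongest region without a cloverleaf, with 119, 335 and 335 fragments. Its POLK-/- ratio was 0.940 (0.760 to 1.17). Local background at this region was 1.24 fragments in WT and 9.10 in DDX23-/-. At chr17:41446257-41446766 it was 0.802 and 5.65. Genome-wide levels were 0.573 in WT and 1.94 in DDX23-/-, so these low ratios depend on the background used. The intervals leave out error in the background. The other 3 of the 5 smallest DDX23-/- ratios were 0.479 (0.281 to 0.852) at chr9:103360962-103361488, with 19, 68 and 57 fragments, 0.549 (0.272 to 1.22) at chr11:15671711-15672151, with 10, 20 and 43, and 0.578 (0.278 to 1.29) at chr13:77903881-77904162, with 11, 15 and 27. None of the 3 held a cloverleaf, and 0.479 was past 2-fold.

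The region chr17:80452086-80453073 was missed by the search only because of the base before the anticodon. A wider search, added after the data were seen, allowed C there, the base in initiator tRNA, and found a methionine-type cloverleaf in it, between NARF and FOXK2, where RefSeq lists TRX-CAT1-8. It added no other intergenic region. It is printed because it changes how the strongest exception reads, with capitals as before.
Met-CAT, chr17:80452598-80452668, minus strand: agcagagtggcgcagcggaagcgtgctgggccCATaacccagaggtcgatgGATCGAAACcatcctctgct

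The box motifs gave a narrower count of the same promoters. An A box followed downstream on the same strand by a B box (GTTCGANNC) was found in the 300 bp window around the summit in 23 of the 333 intergenic regions (6.91%, 4.43% to 10.2%), and 19 of the 23 also held a cloverleaf. It was in 42.1% of the regions in tRNA clusters, 0.778% of those near gene starts and 0.0914% of all 300 bp tiles of the genome. The 18 of the 23 that were in all 3 lists had from 14 to 204 fragments in WT, from 24 to 381 in POLK-/- and from 48 to 376 in DDX23-/-. The strict B box letters miss sequences printed above such as GTTCAAGTC of Lys-TTT and GATCGATGC of Ala-AGC.

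The other 290 intergenic regions had no common form. Many resembled CpG islands, the CG-rich stretches at many vertebrate promoters. Of the 290, 130 had a window with GC of at least 50% and a CpG ratio over 0.6, a measure chosen after the data were seen. Over all 333 the count was 147 (44.1%). Near gene starts 92.9% of regions did, and 1.57% of the genome's tiles. By class the count was 31 of 49 regions with a peak in both knockouts (63.3%), 80 of 162 DDX23-/- only (49.4%), 24 of 56 in all 3 lists (42.9%), 7 of 34 POLK-/- only (20.6%) and 4 of 27 WT-only (14.8%).

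Median GC content of the 333 windows was 57.7% (56.3% to 59.3%), between the 47.2% of the tRNA clusters and the 67.3% of gene starts, with a genome mean of 40.9%. With a cloverleaf it was 49.7% and without one 59.0%. DDX23-/- only regions had a median of 60.7%, those in both knockouts 58.3%, WT-only 54.3% and POLK-/- only 52.0%. WT-only and POLK-/- only regions were also poor in CpG for their base composition, with median observed to expected ratios of 0.253 and 0.349, against 0.650 in DDX23-/- only regions.

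**Figure D4:**
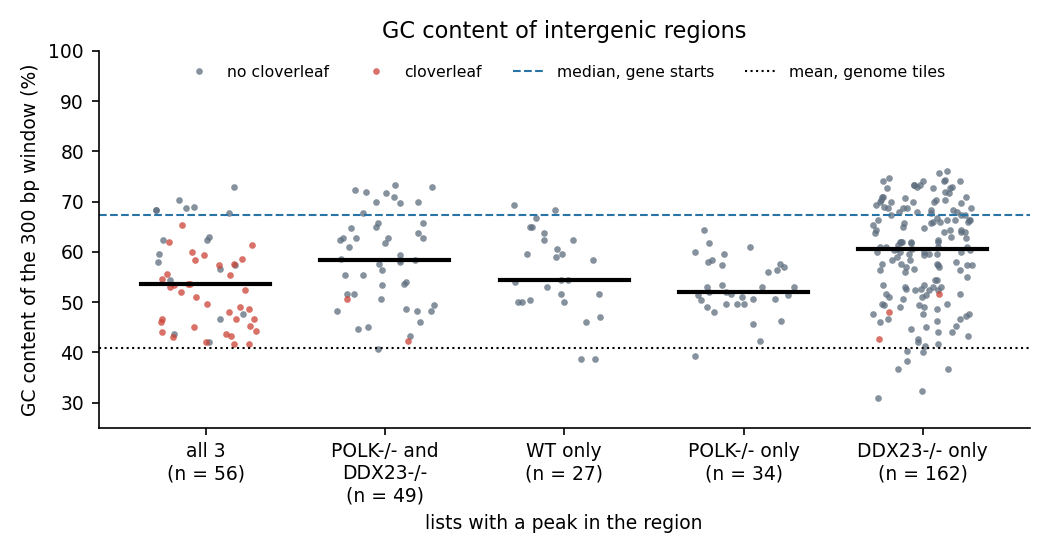
GC content of the 300 bp window around the summit of each intergenic region by the lists that hold a peak; bars are medians, the dashed line is the median near gene starts and the dotted line the mean of genome tiles. The medians run from 52.0% in POLK-/- only to 60.7% in DDX23-/- only regions; 5 regions in WT and 1 knockout are not drawn.

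Short motifs of common factors were searched on both strands of the same windows. The GC box (GGGGCGGGG), bound by the SP family, was in 26 windows (7.81%), against 22.5% near gene starts and 0.431% of tiles. The ETS motif (CCGGAAGT) was in 5 (1.50%), against 8.98% and 0.142%, YY1 (AANATGGCG) in 6 (1.80%), against 9.17% and 0.610%, and NRF1 (GCGCATGCG) in 7 (2.10%), against 3.85% and 0.0231%. The exact interval lay below the share near gene starts for the GC box (5.16% to 11.2%), ETS (0.489% to 3.47%) and YY1 (0.664% to 3.88%), and included it for NRF1 (0.849% to 4.28%). The CTCF motif, of the insulator protein, was in 23 (6.91%, 4.43% to 10.2%), against 4.17% near gene starts and 0.752% of tiles. AP-1 (TGANTCA), the site of FOS and JUN, was in 31 (9.31%), the same share as the 9.31% of tiles, against 3.03% near gene starts.

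The TATA box (TATAAA) was in 25 windows (7.51%), against 3.05% near gene starts and 29.6% of tiles. The Alu motif (GTTCGAGAC), which matches the B box pattern and marks the most frequent short repeat, was in 12 (3.60%), against 0.573% near gene starts and 1.65% of tiles. The cyclic AMP response element CRE (TGACGTCA) was in 2.10%, against 3.36% near gene starts and 0.105% of tiles, the E box (CACGTG) in 8.41%, against 9.47% and 2.74%, and the CCAAT box (CCAAT) in 32.7%, against 35.3% and 38.2%. None of the 333 windows held the ZNF143 motif (ACTACAATT), the satellite motif (GGAATGGAA) or the telomere repeat (TTAGGGTTA), which allows a share of up to 1.10% by the exact interval.

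**Figure D5:**
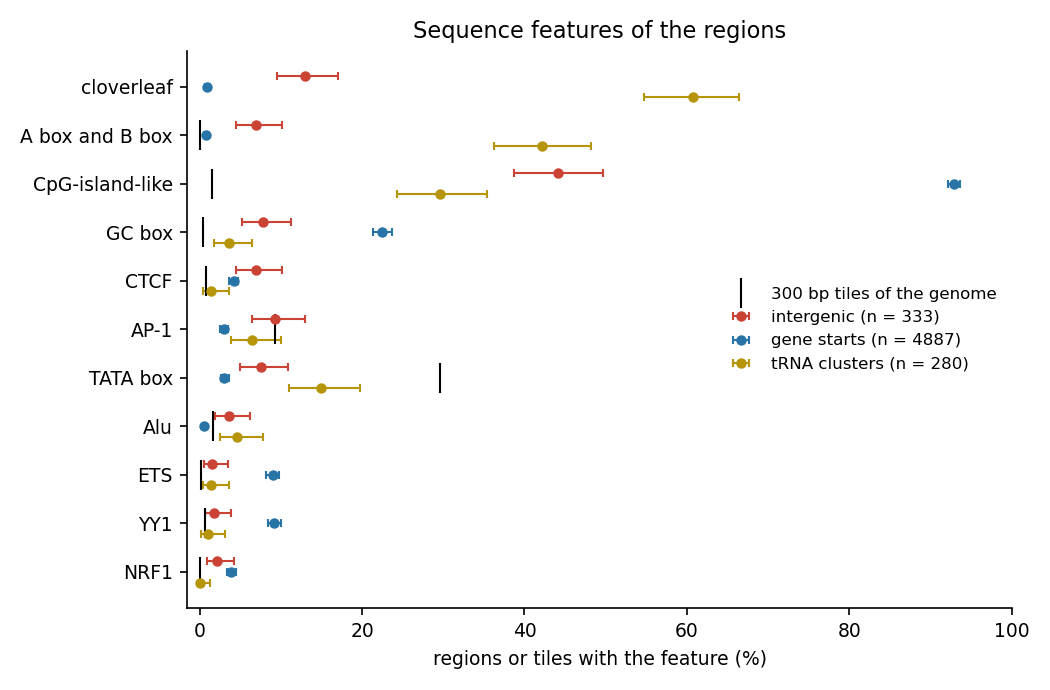
Share of regions with each sequence feature (%), for intergenic regions, regions near gene starts and regions in tRNA clusters, with exact 95% binomial intervals, and for all 300 bp tiles of the genome as black ticks (not computed for the cloverleaf). Intergenic regions lie between the other kinds for the cloverleaf, the CpG-island-like measure and the GC box.

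The 5 strongest regions without a WT peak also held no cloverleaf. Of these chr1:28672531-28673055, 17018 bp from the start of MED18, a Mediator subunit, had 109 fragments in DDX23-/- alone, chr15:90041924-90042460, near RHCG, an ammonium transporter, had 112, and chr7:18077966-18078405 had 94. The region chr1:162913378-162913877 had 20 in POLK-/- and 152 in DDX23-/-. The fifth was the chromosome 6 region with 98 fragments.

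The highest intergenic summits of the WT list were not tRNA-like and stood on a high background. The regions chr1:121484383-121485409 and chr7:61968766-61969681, beside the centromeres, had 456 and 453 fragments in WT, the first exactly at the limit of 456, and no peak in either knockout. The local background there was 276 and 275 fragments, 482 and 480 times the genome-wide level, so enrichment was 1.65 in both. In a search added after the data were seen, among spacings of 100 to 300 bp, bases in the first region matched most often at 171 bp, in 46.4% of positions. At that spacing the second region had 53.7% and the median intergenic region 26.5%. Alpha satellite, the repeat of human centromeres, has a unit of this length, and 1 such unit of the first region is printed, with no capitals.
WT-only region, chr1:121485130-121485300, plus strand: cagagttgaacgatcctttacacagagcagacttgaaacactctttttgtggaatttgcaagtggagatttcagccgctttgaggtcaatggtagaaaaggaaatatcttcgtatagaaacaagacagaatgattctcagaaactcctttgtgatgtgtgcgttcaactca

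The gap from an intergenic region to the nearest gene start of any class ranged from 1045 to 611367 bp with a median of 9739 bp. It was under 5 kb for 101 regions and over 50 kb for 22. The nearest start was that of an lncRNA in 116, a protein-coding gene in 108, a processed pseudogene in 43 and a microRNA in 16. The body of a noncoding gene, nearly always an lncRNA, was overlapped by 85 of the 333 (25.5%). Median width was 341 bp, with 674 bp for regions in all 3 lists and 293 bp for DDX23-/- only regions. The median gap was 20167 bp for WT-only, 9888 bp for POLK-/- only and 8097 bp for DDX23-/- only regions. In all, 17 groups of regions within 10 kb of each other held 39 of the 333.

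High local background of over 10 times the genome-wide level was also found at chr16:46405323-46405534, with 109 fragments in POLK-/- alone, and at chr8:46849133-46849344, with 64 in DDX23-/- alone, both likewise near centromeres. The other 2 such regions were tRNA-like ones on chromosomes 11 and 12.

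At the edge of the rule, the nearest regions left in were chr21:28218773-28219133, 1045 bp from ADAMTS1, a protease gene, with 20 fragments in POLK-/- and 37 in DDX23-/-, and chr2:172959457-172959785, 1074 bp from an lncRNA start near DLX2, with 40 in DDX23-/-. Just left out were chr3:37902035-37902297, 996 bp from ITGA9-AS1, with 29 in DDX23-/-, and chr22:41487215-41487564, 953 bp from MIR1281, with 23 in POLK-/- and 33 in DDX23-/-, as was chr3:107150692-107150917, 953 bp from LINC01990, with 26 in DDX23-/-. The next one left in, 1115 bp from RNU7-58P, was the Lys-TTT region chr11:59327388-59328250 described above.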

How the data were processed

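Chromatin immunoprecipitation peaks were analysed from 1 list each of WT, POLK-/- and DDX23-/- HEK293T cells (1468, 2451 and 5945 peaks). Per the submitters' processing notes, the authors used Bowtie2, MACS2, bedtools and deepTools on hg19, with versions not given in the sources used here, nor the control, the threshold or whether libraries were pooled. The deposited values were the fold enrichment ratio at the summit, the −log10 p-value and q-value, and a score. The numbers in the peak names differ from the sample number for 2 lists, and the record of each list was followed. The second libraries, the control libraries of each genotype and the tagged-POLK samples were not analysed here. Sample titles of these genotypes begin with R_, and the meaning of that prefix is not given in the sources used here.

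Overlapping peaks were merged. Regions on contigs without annotation (10 of 6222) were left out. Summit fragments and background were solved for every peak from the deposited fold and p-value with the MACS2 formulas, which add 1 to both terms of the fold, to a relative tolerance of 2e-05. The scale applied to the pulldown counts within each list's own peak calling was inferred separately for each list. It was 0.736 for POLK-/-, 0.660 for DDX23-/- and 1 (unscaled) for WT, and it does not normalise 1 genotype to another. Intervals were exact binomial for shares, Poisson for fragments and order statistics for medians, at 95%. No test of genotype was possible with 1 list each. Regions named were the 10 with the smallest p in each list, the 5 largest and 5 smallest ratios of each knockout to WT (at least 20 summit fragments in 1 list), the 5 strongest without a WT peak, the regions with A and B box in all 3 lists as a group, and those next to the 1 kb limit; others were named after their values were seen. The regions and lists were chosen with earlier results of these data known. The scripts were tested on simulated data. RefSeq names came from a GRCh38.p14 table and its coordinates were not used. Python 3.11.15, numpy 2.4.6, pandas 2.3.3, scipy 1.17.1, pysam 0.24.0, numba 0.67.0 and matplotlib 3.10.9 were used.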

Additional observations from a re-analysis of the deposited data

How the results depend on the processing

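The 9 results were recomputed under 65 alternatives, several chosen after the data were seen, and in 53 the value lay within the interval of the reported one or, for the count of regions, was between 232 (over 5 kb from any gene start) and 343. Cutting each list to its 1468 strongest peaks moved 7 of them: 145 regions were left, 32.4% with a peak in all 3 lists, 13.8% with a DDX23-/- peak only, 15.2% with A and B box, 28.3% with a cloverleaf, 19.3% in a noncoding gene body, and a median GC of 53.7%. Fewer weak DDX23-/- peaks enter by construction. Measuring from every transcript start gave 19.7% in a noncoding gene body. With the deposited fold, which adds 1 to both terms, in place of enrichment, the median ratios were 1.41 for POLK-/- and 1.89 for DDX23-/-. With genome-wide background they were 1.16 (0.933 to 1.34) and 1.26 (0.885 to 1.43), and both intervals include 1. Without summits near the limit the DDX23-/- median was 1.33 (0.833 to 1.92), which also includes 1. With only peaks of q-value 1e-05 or less the POLK-/- median was 1.10 (0.954 to 1.41), again including 1. A looser B box gave 15.0%. The cause was not tested for the ratios and the B box.

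With 1 list per genotype the values have no biological error, and genotype, library and depth cannot be told apart. Summits of the strongest regions lay near the limit of 1 fragment per position and strand. No paired analysis was possible because each genotype had 1 peak list and no result came from a test.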
